A study of Homo sapiens with 2 samples.

Results

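Binding of the retinoblastoma protein Rb was described at the promoters of 8 genes whose products process RNA: MAGOHB, EXOSC9, DDX55, DHX40, SRSF1, SRSF2, SRSF3 and HNRNPA2B1. The members were found as peaks with a summit within 3 kb of the hg19 start site of each gene, which gave 11 of the 21994 peaks in the LNCaP list and 9 of the 9423 peaks in the VCaP list. The genes were chosen by the peaks that these same lists hold there, so that the presence and the height of the peaks are given as a description, with no test. LNCaP and VCaP are established human prostate cancer cell lines that express the androgen receptor, and each is represented by 1 chromatin immunoprecipitation (ChIP-seq) library made with the same mouse monoclonal antibody against Rb. Both lines, at passage 10 to 15, had been kept for 3 days in medium with 5% charcoal-treated serum and then exposed for 4 h to dihydrotestosterone (DHT), an androgen, at 10 nM. Untreated cells, input chromatin and further cultures were not analysed here, so differences between the lines compare 2 libraries, and the spread between cultures is not known.

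Rb is a tumour suppressor that is recruited to DNA mainly by E2F transcription factors, and it restrains genes needed for entry into the cell cycle. It has no sequence-specific DNA binding of its own, so a ChIP signal at a promoter reflects Rb held there by other proteins. The products of the 8 genes act at several steps in the life of an RNA. SR proteins and hnRNP proteins bind the nascent transcript and steer splice site choice, RNA helicases remodel RNA and RNA-protein complexes, the exon junction complex marks the places where exons were joined, and the exosome trims and degrades RNA from its 3′ end.

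Promoter sequences from RefSeq (GRCh38.p14) were searched for short motifs. Each window runs from 250 bp before to 50 bp after the start site. An entry was found for 7 of the 8 genes, and 6 were used, because the MAGOHB window begins 631 bp inside the gene. The motif TGACGT, the core of the cyclic AMP response element that CREB and ATF factors bind, was found on either strand in 5 of these 6 promoters (EXOSC9, DHX40, SRSF1, SRSF3 and HNRNPA2B1). It was present in 9.67% of the windows of 15843 protein-coding genes, in 11.2% of the 10285 with a GC content within the members' range, and in 24 of 136 other RNA processing genes (17.6%). Cores of the E2F site, searched on either strand as TTCCCGC and its variants with other middle bases, namely TTCGCGC, the form TTGGCGC and the form TTGCCGC, were found in 3 of the 6 (DDX55, DHX40 and HNRNPA2B1), against 17.1% of all windows and 29.4% of the other RNA processing genes. Among all motifs searched, the rest of which are given below, TGACGT was found in the most of the 6 promoters. The members were not drawn at random and motif matches are letters, not bound sites, so these shares are descriptions.

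The promoters of DHX40, EXOSC9, DDX55 and SRSF3 are given as examples, 5′ to 3′ on the strand of the gene. Matches to the TGACGT motif and to the E2F cores are in capitals. DHX40 held both motifs, EXOSC9 had TGACGT close to the start site, and DDX55 had an E2F core only. SRSF3 had TGACGT, and its peak was among the least enriched of the 8 genes. Whether either motif goes with the level of enrichment was not tested.
DHX40, chr17:59565360-59565659, plus strand: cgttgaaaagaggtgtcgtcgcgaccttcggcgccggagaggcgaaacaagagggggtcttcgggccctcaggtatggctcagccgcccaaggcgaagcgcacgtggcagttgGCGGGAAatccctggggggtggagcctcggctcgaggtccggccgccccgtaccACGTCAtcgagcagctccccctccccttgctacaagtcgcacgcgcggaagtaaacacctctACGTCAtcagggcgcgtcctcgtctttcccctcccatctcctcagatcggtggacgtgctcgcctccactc
EXOSC9, chr4:121801073-121801372, plus strand: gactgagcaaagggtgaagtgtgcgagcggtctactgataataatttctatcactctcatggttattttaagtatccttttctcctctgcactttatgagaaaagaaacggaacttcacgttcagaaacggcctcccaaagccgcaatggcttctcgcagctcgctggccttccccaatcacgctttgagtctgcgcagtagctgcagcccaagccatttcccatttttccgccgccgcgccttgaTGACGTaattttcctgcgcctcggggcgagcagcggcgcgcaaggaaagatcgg
DDX55, chr12:123601849-123602148, plus strand: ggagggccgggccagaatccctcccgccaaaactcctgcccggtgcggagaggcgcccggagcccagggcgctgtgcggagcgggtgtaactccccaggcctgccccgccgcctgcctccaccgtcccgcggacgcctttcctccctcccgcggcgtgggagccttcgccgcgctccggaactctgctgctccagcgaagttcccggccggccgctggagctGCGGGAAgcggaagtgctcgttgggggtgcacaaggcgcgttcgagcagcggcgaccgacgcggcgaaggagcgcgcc
SRSF3, chr6:36594112-36594411, plus strand: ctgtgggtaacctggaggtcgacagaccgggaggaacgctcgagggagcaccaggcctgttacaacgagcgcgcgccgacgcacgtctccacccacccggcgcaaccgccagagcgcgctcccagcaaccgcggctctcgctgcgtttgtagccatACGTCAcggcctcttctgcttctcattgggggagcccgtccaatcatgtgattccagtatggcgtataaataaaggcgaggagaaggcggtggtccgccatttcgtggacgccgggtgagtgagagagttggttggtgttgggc

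In DHX40 the TGACGT motif, read on the opposite strand as ACGTCA, began 83 and 21 bp before the start site, and the E2F core, read as GCGGGAA, began 137 bp before it. The EXOSC9 match began 4 bp before the start site and the SRSF3 match 94 bp before it. The remaining TGACGT matches began 150 bp before the start site in SRSF1 and 68 bp before it in HNRNPA2B1. The E2F core of DDX55 began 28 bp before the start site and that of HNRNPA2B1 109 bp before it. The 6 windows held 22 to 40 CG dinucleotides with a median of 31, against a median of 22 over all windows (quartiles 8 and 32), and their GC content of 52.3% to 74.3% spanned the median of all windows, 62.7%. The hexamer AGAACA, the unit of androgen response elements, was found in 0 of the 6 and in 11.2% of all windows. The RefSeq start sites are on another genome build than the peaks, so motif positions and summits are not placed on 1 scale here.

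All 8 promoters had a peak in both lists, and in each gene at least 1 LNCaP peak overlapped a VCaP peak. Of all peaks on chromosomes 1 to 22 and X, 30.2% in LNCaP and 71.2% in VCaP had such a partner. Nothing is read from the members' count, since the rule used the peaks. For each gene the peak of highest fold enrichment is described. Fold enrichment is the authors' ratio of the pileup plus 1 to the local background of the same library plus 1. The pileup is the number of extended tags over the summit. The highest peaks ranged from 6.47 to 22.8 with a median of 17.9 in LNCaP, where all peaks had a median of 6.00, and from 6.20 to 17.3 with a median of 11.4 in VCaP, where all peaks had a median of 5.51. A fold of at least 10 was reached by 6 members in LNCaP, against 8.02% of all LNCaP peaks, and by 5 in VCaP, against 3.32% of all VCaP peaks. Intervals given below are exact 95% Poisson intervals of the pileup carried over to the fold, with the background held fixed, and cover counting error only.

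**Figure D1:**
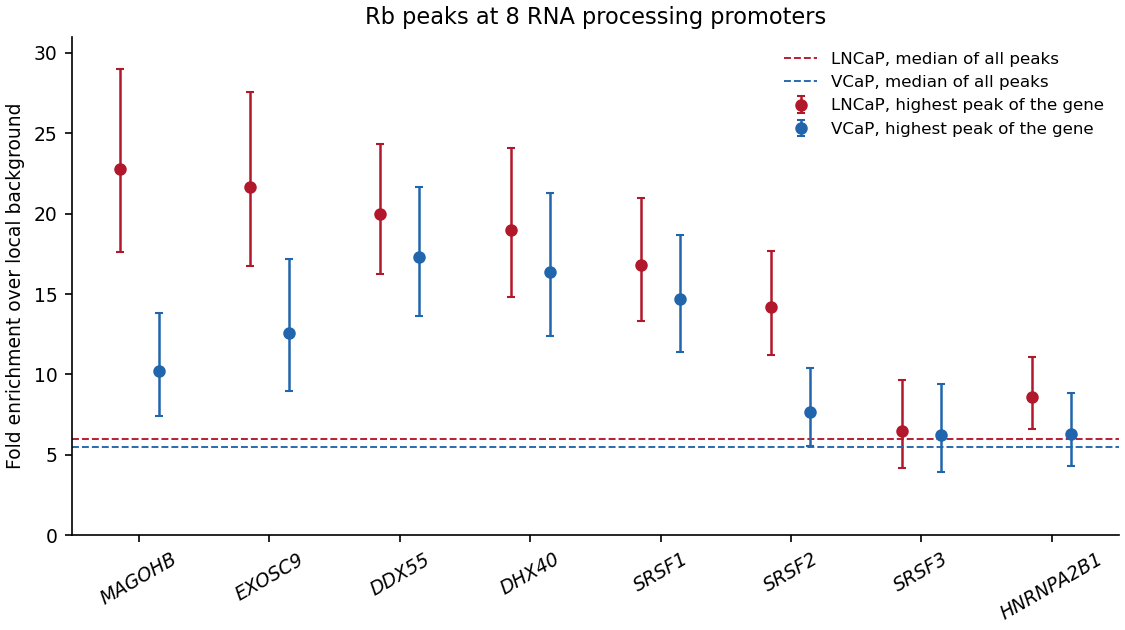
Fold enrichment over the local background (vertical axis) of the highest Rb peak at each of the 8 genes, LNCaP in red left of VCaP in blue, 1 library per line. Vertical bars are 95% counting intervals and dashed lines are the medians of all peaks, 6.00 in LNCaP and 5.51 in VCaP; the intervals of SRSF3 in both lines and of HNRNPA2B1 in VCaP include the median of their list, and all other intervals lie above it, that of SRSF2 in VCaP down to 5.54.

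MAGOHB encodes a paralog of the Mago protein, a core subunit of the exon junction complex. Its promoter carried the peak of highest fold enrichment in the whole LNCaP list, at chr12:10765913-10766371 in LNCaP and chr12:10765933-10766442 in VCaP. The pileup was 64 tags in LNCaP and 41 tags in VCaP. The fold was 22.8 (17.6 to 29.0) in LNCaP and 10.2 (7.41 to 13.8) in VCaP, where the peak ranked 283 of 9393. The intervals did not overlap, and the ratio of LNCaP over VCaP was 2.22, a value reached or undercut by 96.4% of all overlapping pairs of peaks. The site is singled out here as the leader of the LNCaP list, and how far that choice goes with the ratio was not tested.

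In the pileup itself, the gap between the lines at MAGOHB lay within the range of the other genes, whose ratios ran from 2.60 to 4.58. Scaled to 1000000 filtered tags, the pileup was 17.4 in LNCaP and 4.72 in VCaP. Their ratio of 3.70 (exact interval 2.46 to 5.61) lay near the median of all pairs, 3.35. The local background at MAGOHB was 77 tags in LNCaP and 138 tags in VCaP, counted over 10 kb. Per 1000000 tags of the library that is 21.0 for LNCaP and 15.9 for VCaP, with a ratio of 1.32 against 2.18 to 3.28 at the other 7 genes. These windows include the tags of the peak, and whether DNA copy number plays a part was not tested.

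EXOSC9 encodes a non-catalytic subunit of the ring that forms the core of the RNA exosome. Its peak lay at chr4:122722310-122722773 in LNCaP and chr4:122722354-122722759 in VCaP. The pileup was 64 tags in LNCaP and 37 tags in VCaP. The fold was 21.7 (16.8 to 27.6) in LNCaP, rank 6 of 21955, and 12.6 (8.94 to 17.2) in VCaP, rank 121 of 9393. The ratio was 1.72, and the counting intervals met only at their ends. The local windows were among the emptiest of the 8 genes, with 83 tags in LNCaP and 90 in VCaP.

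DDX55 and DHX40 encode RNA helicases of the DEAD-box and DEAH-box families; the yeast counterpart of DDX55, Spb4, acts in assembly of the large ribosomal subunit. Both promoters ranked between 15 and 28 in each list by fold, with overlapping intervals between the lines. DDX55 had the highest pileup of the 8 genes, with 98 tags in LNCaP (chr12:124086218-124086853) and 74 tags in VCaP (chr12:124086239-124086725). Its fold was 19.99 (16.3 to 24.3) in LNCaP and 17.3 (13.7 to 21.7) in VCaP, at rank 15 in LNCaP and rank 20 in VCaP. DHX40 had 67 tags in LNCaP (chr17:57642590-57643074) and 54 tags in VCaP (chr17:57642614-57643054). Its fold was 19.0 (14.8 to 24.1) in LNCaP and 16.4 (12.4 to 21.3) in VCaP, at rank 26 in LNCaP and rank 28 in VCaP. The ratios of LNCaP over VCaP were 1.15 for DDX55 and 1.16 for DHX40, within the counting error and below the median of all overlapping pairs, 1.32.

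The 3 genes for SR proteins did not have the same level of Rb signal. SRSF1, SRSF2 and SRSF3 encode RNA-binding proteins with a domain rich in arginine and serine that act in constitutive and alternative splicing. SRSF1 had 77 tags in LNCaP (chr17:56084461-56085260) and 65 tags in VCaP (chr17:56084607-56085227). Its fold was 16.8 (13.3 to 21.0) in LNCaP and 14.7 (11.4 to 18.7) in VCaP, at rank 71 in LNCaP and rank 57 in VCaP. SRSF1 thus stood with the helicase genes, high in both lists and with overlapping intervals.

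SRSF2, whose product is a marker of nuclear speckles, had unequal enrichment in the lines. Its higher peak had 76 tags in LNCaP (chr17:74733355-74734007) and 40 tags in VCaP (chr17:74733300-74733785). The fold was 14.2 (11.2 to 17.7) in LNCaP, rank 234, and 7.67 (5.54 to 10.4) in VCaP, rank 1015. The intervals did not overlap, and the ratio was 1.85. The scaled pileup was 20.7 in LNCaP and 4.60 in VCaP, which put LNCaP higher by a factor of 4.50 (3.03 to 6.77). That interval includes the median ratio of all overlapping pairs, 3.35. Unlike MAGOHB, SRSF2 had a ratio of window tags, 2.26, within the range of the other genes. SRSF2 had no RefSeq promoter entry, so genes that start within 1 kb of it could not be searched for. The protein-coding genes next to it in RefSeq are METTL23 and MFSD11. The signal described here was therefore not assigned to SRSF2 alone.

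A second peak near SRSF2 was found in both lists, 858 bp in LNCaP and 836 bp in VCaP from the start site toward lower chromosome positions. It had 23 tags in LNCaP (chr17:74732506-74732886) and 21 tags in VCaP (chr17:74732484-74732742). Its fold of 4.28 in LNCaP and 4.12 in VCaP was low in both lists, at rank 20067 in LNCaP and rank 8879 in VCaP. These were the peaks farthest from a start site within the 3 kb limit, and the nearest beyond it was an LNCaP peak 5916 bp from the DHX40 start site with 7 tags and a fold of 5.40.

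SRSF3, the gene for a small SR protein that also takes part in mRNA export, had the lowest fold of the 8 genes in both lines, although its interval overlapped that of HNRNPA2B1 in each line. The pileup was 22 tags in LNCaP (chr6:36561809-36562513) and 20 tags in VCaP (chr6:36561909-36562343). The fold was 6.47 (4.16 to 9.65) in LNCaP and 6.20 (3.90 to 9.42) in VCaP. Both values lay close to the medians of their lists, and the peak ranked 8904 in LNCaP and 2812 in VCaP. Its scaled pileup of 5.99 in LNCaP and 2.30 in VCaP was also the lowest of the 8 genes.

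HNRNPA2B1 encodes an hnRNP protein that binds pre-mRNA and also acts in RNA transport. It had 3 peaks in LNCaP and 1 in VCaP, and in the RefSeq annotation its start site lies within 1 kb of that of CBX3, which is on the opposite strand and encodes the heterochromatin protein HP1 gamma. The highest peak was on the CBX3 side, 666 bp upstream of the HNRNPA2B1 start site in LNCaP (chr7:26240889-26241549) and 673 bp upstream in VCaP (chr7:26241005-26241270). It had 60 tags in LNCaP and 31 tags in VCaP. The fold was 8.62 (6.61 to 11.1) in LNCaP and 6.28 (4.33 to 8.83) in VCaP, and their ratio of 1.37 stood beside overlapping intervals.

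The other HNRNPA2B1 peaks were called in LNCaP alone. One had its summit 85 bp upstream of the start site (chr7:26240295-26240694), with 50 tags and a fold of 7.26 (5.43 to 9.53). The other lay 577 bp downstream (chr7:26239738-26239991), with 26 tags and a fold of 3.84, rank 21386 of 21955. The VCaP list had no peak nearer to the HNRNPA2B1 start site than the one on the CBX3 side, and how many VCaP tags lie there is not recorded in a peak list. The signal at this pair of divergent genes cannot be assigned to one of them.

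At HNRNPA2B1 the fold gave a much lower place than the pileup. By pileup its highest peak ranked 102 of 21955 in LNCaP and 470 of 9393 in VCaP, and by fold 3412 in LNCaP and 2643 in VCaP. The 10 kb window held 252 tags in LNCaP and 182 tags in VCaP, against medians over all peaks of 51 tags in LNCaP and 68 tags in VCaP, and the LNCaP window includes the tags of all 3 peaks. SRSF2, with 2 peaks in one window, likewise ranked 45 by pileup and 234 by fold in LNCaP. MAGOHB showed the reverse order in LNCaP, ranking 79 by pileup and 1 by fold.

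**Figure D2:**
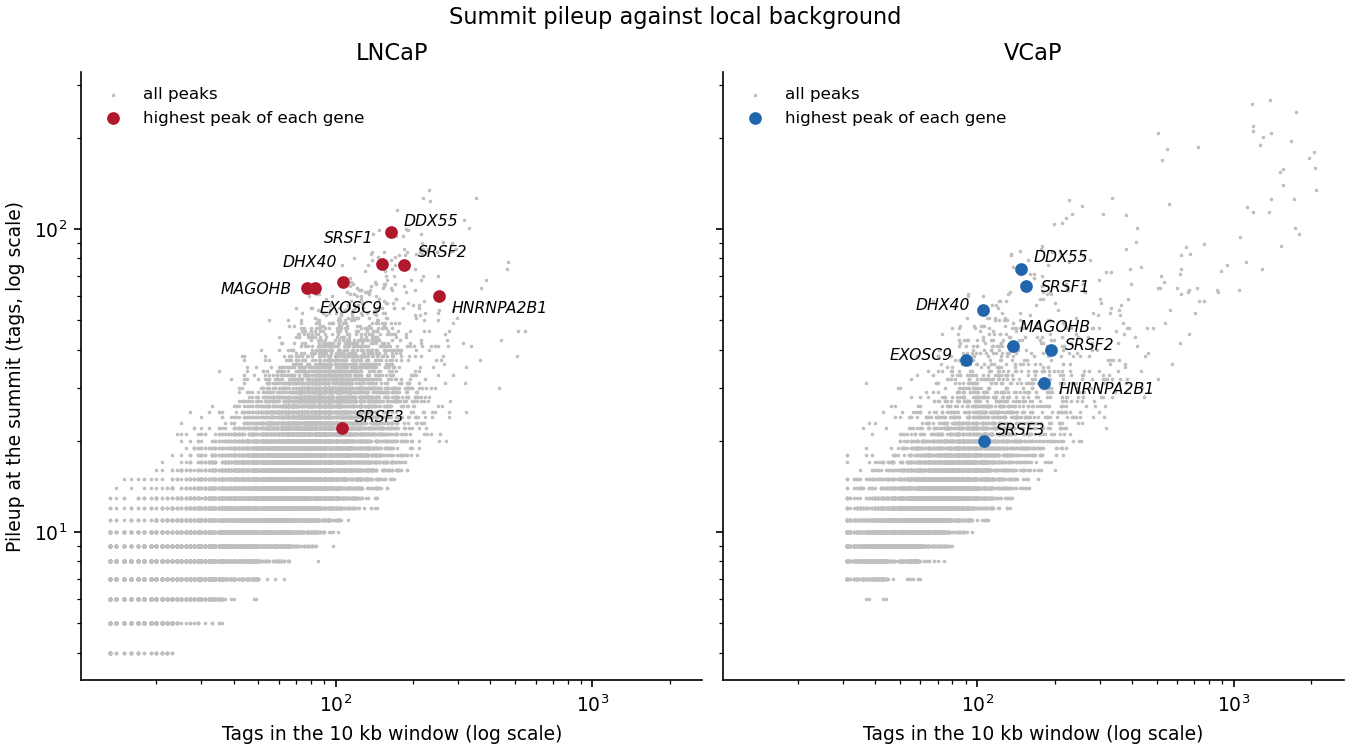
Pileup at the summit in tags against the tags in the 10 kb window from which the background was taken, both on log scales, for all peaks of LNCaP (left) and VCaP (right) in grey and for the highest peak of each of the 8 genes in colour. In LNCaP, MAGOHB and EXOSC9 have equal pileups of 64 tags over windows of 77 and 83 tags, while HNRNPA2B1 has 60 tags over a window of 252 tags.

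Across the 8 genes, the fold was higher in LNCaP at every one, by less than 1.5 times at 5 of them. The ratio was at least 1.5 at 3 genes (MAGOHB, EXOSC9 and SRSF2), where 33.4% of all 6688 overlapping pairs reached it, and 0 were lower in LNCaP by that factor, against 1.57% of all pairs. The fold was above that of VCaP in 80.8% of all pairs. The median ratio of the 8 genes, 1.27, was close to the median of 1.32 over all pairs (quartiles 1.07 and 1.62). The counting intervals were apart at 2 genes, MAGOHB and SRSF2, both with LNCaP higher. They were apart in that direction at 2.21% of all pairs and in the other at 0.0748%. Most pairs have fewer tags than the members and therefore wider intervals, so these shares are not like for like.

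**Figure D3:**
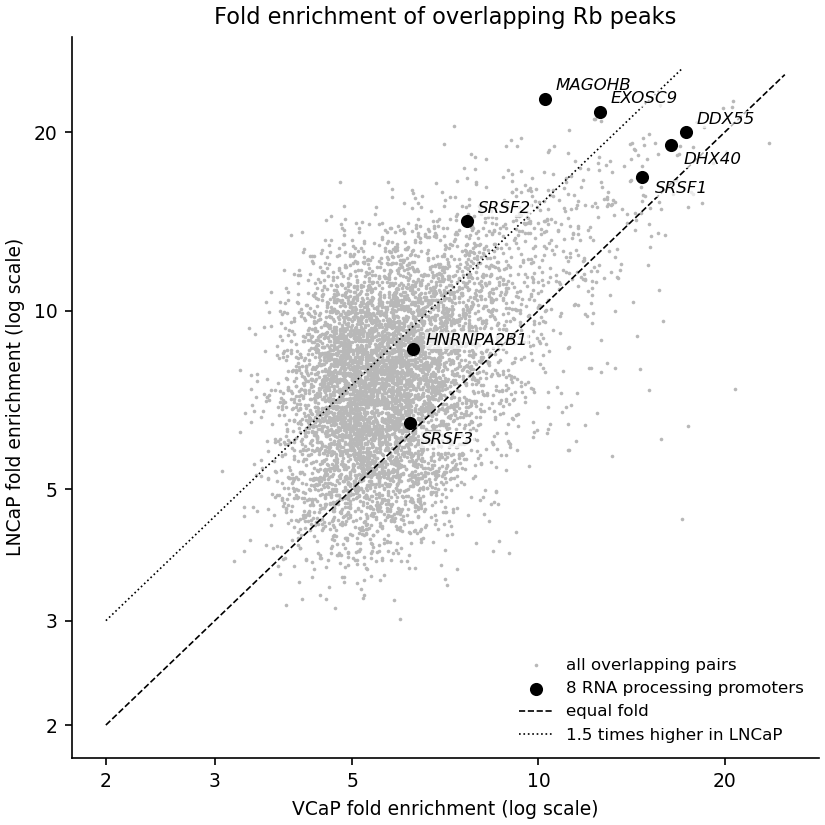
Fold enrichment in LNCaP (vertical) against VCaP (horizontal), both on log scales, for 6688 overlapping pairs of Rb peaks in grey and the 8 genes in black; the dashed line marks equal fold and the dotted line 1.5 times higher in LNCaP. MAGOHB, EXOSC9 and SRSF2 lie above the dotted line, and DDX55, DHX40, SRSF1 and SRSF3 lie just above the line of equal fold.

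The summits of the 2 libraries nearly coincided. They were 7 to 70 bp apart at the 8 genes, with a median of 25 bp, against a median of 73 bp over all overlapping pairs. The closest were HNRNPA2B1 at 7 bp, DHX40 at 8 bp, SRSF1 at 16 bp and EXOSC9 at 17 bp. The members' peaks had median pileups of 65.5 tags in LNCaP and 40.5 in VCaP, against 13 over all peaks of each list. The gaps of the members and of all pairs are thus not compared at like pileup. The LNCaP peak was the longer at 7 genes, and MAGOHB, with 459 bp in LNCaP and 510 bp in VCaP, was the exception. Over all overlapping pairs the LNCaP peak was the longer in 85.8%, a share close to that of the 8 genes.

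The summits lay within 300 bp of the start site at 7 of the 8 genes in both lines, but on different sides of it. Relative to the direction of transcription in RefSeq, the summit was downstream of the start site at MAGOHB, by 74 bp in LNCaP and 107 bp in VCaP, at EXOSC9, by 101 bp in LNCaP and 84 bp in VCaP, and at SRSF3, by 91 bp in LNCaP and 43 bp in VCaP. It was upstream at DDX55, by 140 bp in LNCaP and 210 bp in VCaP, at DHX40, by 62 bp in LNCaP and 54 bp in VCaP, and at SRSF1, by 296 bp in LNCaP and 280 bp in VCaP. At SRSF2, for which no strand was taken from RefSeq, the summit was 130 bp in LNCaP and 69 bp in VCaP toward higher positions. Each gene had its summit on the same side in both lines. The median distance was 115.5 bp in LNCaP and 95.5 bp in VCaP, as far as the choice of peaks within 3 kb allows such a statement.

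**Figure D4:**
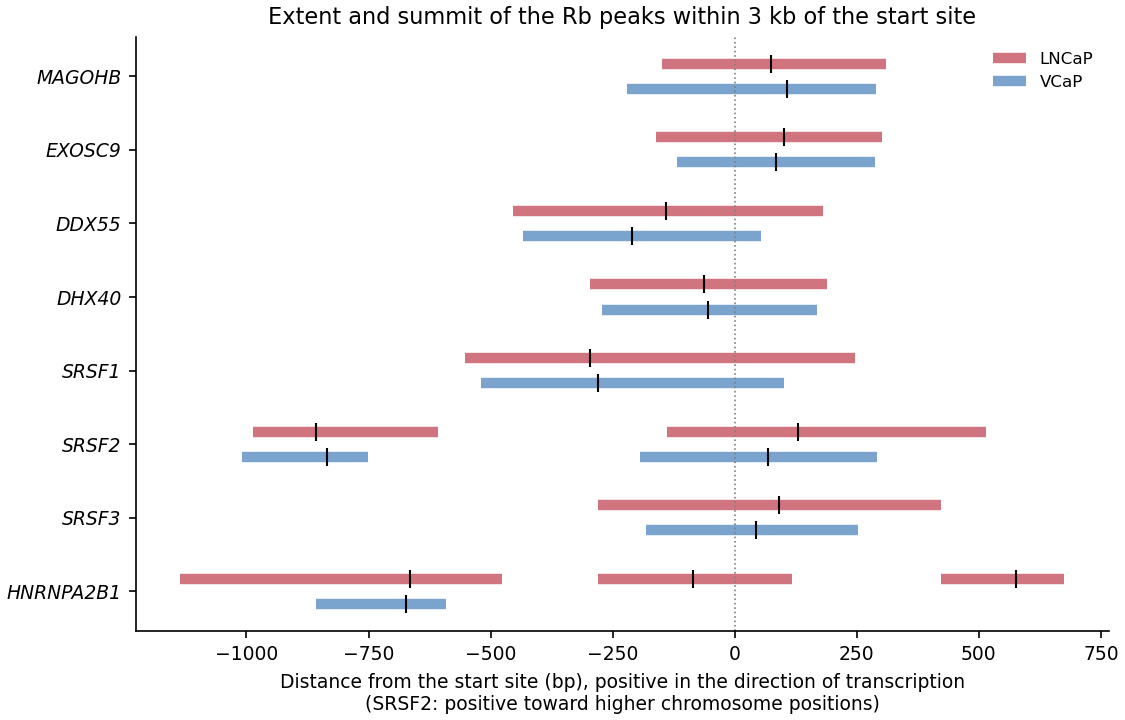
Extent of each Rb peak (bars) and its summit (black ticks) around the start site of the 8 genes, in bp along the direction of transcription, with LNCaP in red above VCaP in blue; SRSF2 is drawn toward higher chromosome positions. The bars of 7 genes span the start site in both lines, whereas at HNRNPA2B1 only LNCaP has a peak across it.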

How the data were processed

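The authors ran MACS 2.1.0.20140616 separately on the 2 libraries, per the file headers, with no control, at a q-value limit of 0.05 with 1 tag kept per position. The libraries had 3671482 filtered tags in LNCaP and 8691938 in VCaP, with modelled fragments of 241 bp in LNCaP and 225 bp in VCaP. The submitters' processing notes name hg19, MACS2 and HOMER; the aligner is not given in the sources used here. The deposited pileup is a coverage signal, not scaled to depth. The deposited fold enrichment is a ratio of pileup plus 1 to local background plus 1, and the deposited −log10 p and −log10 q values come from the same caller. The deposited peak lengths and summits are in bp.

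Background was computed back from fold and pileup; as tags per 10000 bp it came out whole within 0.05 tags for all 20 member peaks. Ranks and overlaps (at least 1 bp) were taken on chromosomes 1 to 22 and X with Python 3.11.15, pandas 2.3.3 and SciPy 1.17.1, and the functions were tested on simulated data. Intervals are exact (Poisson for pileups, Clopper-Pearson for their ratio). No test between the lines was made. The members, gene lists and motifs were chosen with earlier results of these data known. Named were all members with all their peaks, and genes that start within 1 kb of one. CCNA2 was named outside this rule, after its values were seen. METTL23 and MFSD11, next to SRSF2 in RefSeq, were also named outside it, because SRSF2 had no promoter entry. Rb peaks at the 159 listed RNA processing genes (8 lists) were not analysed here, since no hg19 annotation was used; their promoters entered the motif search alone. Alternative windows, limits, overlap rules and scalings were tried.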

Additional observations from a re-analysis of the deposited data

How the results depend on the processing

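With the summit pileup per 1000000 tags in place of the fold, all 8 members were at least 1.5 times higher in LNCaP, against 3 by fold, and so were 95.1% of all overlapping pairs. The scaled pileup ratios of the 8 genes ran from 2.60 to 4.58, with a median of 3.42 against 3.35 over all pairs. With each fold divided by the median of its list, the count stayed at 3, and SRSF3 turned from 1.04 to 0.958. The other counts changed by no more than 1.5 times. A limit of 20 on −log10 q left 7 members with a peak in LNCaP and 6 in VCaP. A summit limit of 500 bp left 8 in LNCaP and 7 in VCaP, and overlap of at least 50% of each peak left 7 shared members. The shares of all peaks that pass these limits are not given here. Nothing is read from these counts, since the rule used the peaks. Of the 8 genes, 7 were in the top 1% of LNCaP and 2 of VCaP by pileup, against 5 of LNCaP and 3 of VCaP by fold. The peaks rest on 20 to 98 tags at the summit, so that differences in fold within a counting interval were not detectable at this depth. No paired analysis was possible because each line has 1 library and no result comes from a test. The alternatives for peaks at the other listed RNA processing genes were not run.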

Other observations

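Between 3 and 50 kb from the start sites of the 8 genes there were 13 LNCaP peaks and 2 VCaP peaks. Their fold was at most 8.01 in LNCaP, with a median of 6.47 against 6.00 over the whole list, and at most 5.44 in VCaP, where the median of the list was 5.51. Their pileup was at most 24 tags in LNCaP and 13 tags in VCaP. MAGOHB had 0 such peaks in either list. The highest by fold was an LNCaP peak 22.7 kb downstream of the EXOSC9 start site (chr4:122744634-122745323, 13 tags), overlapped by a VCaP peak with a fold of 5.44 (chr4:122744859-122745273, 13 tags). In RefSeq the next protein-coding gene after EXOSC9 is CCNA2, which encodes cyclin A2; this gene was named after the peak was seen, and without an hg19 annotation the peak was not assigned to a gene. The other VCaP peak lay 19.6 kb from the SRSF1 start site with 11 tags (chr17:56064958-56065262), and overlapped an LNCaP peak with 14 tags (chr17:56065015-56065322).

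Other short motifs in the 6 promoter windows were spread as follows. CCAAT was found in 3 of the 6 (EXOSC9, SRSF3 and HNRNPA2B1), against 36.4% of all windows. TATAAA was found in SRSF3 alone, 30 bp before the start site, against 9.63% of all windows. GGGCGG was found in DHX40 alone, against 58.5% of all windows, and the ETS core CCGGAAG in 0 of the 6, against 14.2% of all windows and 38.2% of the 136 other RNA processing genes. TTTGAA, the cell cycle homology element, was found in 0 of the 6, against 12.1% of all windows. The cores GCATGCG of NRF1 sites and GATGGCG of YY1 sites were each found in 0 of the 6, against 5.14% of all windows for NRF1 and 5.71% for YY1. Both strands were searched for each motif, and a window without a match says nothing of the factor.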
